A study of Mus musculus with 17 samples.

Results

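Transcripts of 10 genes that mark the choroid plexus epithelium were followed through bulk RNA sequencing of mouse dorsal hippocampus. The genes were Ttr, Folr1, Kl, Sostdc1, Aqp1, Slc4a5, Kcnj13, Kcne2, Clic6 and Otx2, and each was a row of a count table of 24498 gene symbols. They were chosen from earlier results of these data, in which Ttr peaked in the library with replicate number 713 of the male KO Tau group. Their level in that library, and any contrast that includes it, is therefore given as a description.

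The mice were of wild-type (WT) or constitutive Acss2 knockout (KO) genotype, where Acss2 encodes the enzyme that turns acetate into acetyl-CoA, and each genotype came from homozygous crosses of the F1 progeny of heterozygous breeders. At 6 months of age the right dorsal hippocampus was injected with pathological tau isolated from Alzheimer's disease brains (AD-tau, here Tau) or with phosphate-buffered saline as the control (PBS), and mice of this study were analysed after a further 6 months. The male groups were WT PBS, WT Tau, KO PBS and KO Tau with 3 libraries each, and the female groups were WT Tau with 2 libraries and KO Tau with 3. No female group received PBS. RNA came from slices of dorsal hippocampus that held the CA fields and the dentate gyrus.

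The choroid plexus is a sheet of secretory epithelium that hangs into the brain ventricles and makes cerebrospinal fluid. Its cells export carrier proteins, move ions and water from blood to fluid, and are joined by tight junctions that seal the blood from the fluid. In the lateral ventricle it lies beside the hippocampus.

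The libraries held 14183131 to 22463635 counts each, which made 3 counts worth 0.134 to 0.212 CPM (counts scaled to a common library total). Acss2, the targeted gene, did not overlap between genotypes, with 3.07 to 8.81 CPM over 9 KO libraries against 44.0 to 54.6 CPM over 8 WT libraries. The excitatory neuron marker Slc17a7 was at 723 to 1860 CPM in all 17 libraries, and 10 hippocampal markers together gave 1131 to 3076 CPM, with the lowest sum in female WT Tau replicate 331. In bulk tissue, fewer cells of a type and less RNA per cell cannot be told apart.

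The DNA just upstream of the RefSeq start sites was read for the genes with an entry in the sequence table, namely Aqp1, Kcne2, Kcnj13, Kl, Slc4a5 and Otx2. It is reference sequence and holds no information on differences between libraries. Ttr, Folr1, Clic6 and Sostdc1 had none. The 5 windows printed here come from GRCm38.p6, each 250 bases long, 5′ to 3′ on the strand of the gene. The first 3 belong to genes of ion and water transport, and the last 2 to the genes with the lowest Pearson correlation with the rest. Capitals mark the letters GTTGCC on either strand, the core of the sites bound by RFX factors, a family of regulators of ciliated cells.

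Aqp1, chr6:55336049-55336298, plus strand: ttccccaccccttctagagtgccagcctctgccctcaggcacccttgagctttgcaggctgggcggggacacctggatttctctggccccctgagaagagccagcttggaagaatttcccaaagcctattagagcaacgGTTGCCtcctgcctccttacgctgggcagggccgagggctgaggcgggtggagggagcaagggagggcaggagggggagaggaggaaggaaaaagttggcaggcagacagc
Kcne2, chr16:92292139-92292388, plus strand: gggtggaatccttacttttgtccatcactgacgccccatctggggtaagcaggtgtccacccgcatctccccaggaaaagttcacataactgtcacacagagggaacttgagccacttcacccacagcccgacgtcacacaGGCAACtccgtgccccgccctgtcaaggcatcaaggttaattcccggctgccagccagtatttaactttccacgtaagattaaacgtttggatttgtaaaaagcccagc
Kcnj13, chr1:87394730-87394979, minus strand: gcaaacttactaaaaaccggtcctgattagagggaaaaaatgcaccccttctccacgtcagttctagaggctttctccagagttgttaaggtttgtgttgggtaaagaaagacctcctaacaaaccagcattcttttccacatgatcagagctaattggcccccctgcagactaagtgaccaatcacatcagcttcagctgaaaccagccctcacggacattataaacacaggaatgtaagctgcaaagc
Kl, chr5:150952357-150952606, plus strand: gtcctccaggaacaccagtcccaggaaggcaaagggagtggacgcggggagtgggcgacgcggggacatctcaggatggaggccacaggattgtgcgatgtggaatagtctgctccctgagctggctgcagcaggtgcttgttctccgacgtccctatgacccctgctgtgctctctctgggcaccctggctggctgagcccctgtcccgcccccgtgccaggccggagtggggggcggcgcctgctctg
Otx2, chr14:48667645-48667894, minus strand: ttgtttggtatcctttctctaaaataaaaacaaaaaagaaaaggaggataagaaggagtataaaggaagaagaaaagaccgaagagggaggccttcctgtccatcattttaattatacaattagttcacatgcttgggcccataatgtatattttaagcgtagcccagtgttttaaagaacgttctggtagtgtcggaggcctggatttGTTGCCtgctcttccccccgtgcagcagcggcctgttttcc

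The windows of Aqp1, Kcne2, Kcnj13 and Kl overlapped no annotated exon, that of Kcnj13 lay inside an intron of Gigyf2 on the other strand, and that of Otx2 lay inside an intron of longer Otx2 transcripts. Over the 10 windows of the 6 genes, GTTGCC was found in 4, of Aqp1, Kcne2 and Otx2, against 10.4% of all 32851 promoter windows of this length. The windows are not independent, since Otx2 and Kcne2 have more than 1 each. The Otx2 matches include 1 site seen in overlapping windows (48667645 to 48667894 and 48667509 to 48667758). The 4 windows are therefore no measure of an excess over that share. TAATCC, the core of sites bound by Otx2 itself, was found in 1 window, an Otx2 window that is not printed, against 6.25% of all windows. TATAAA, the letters of the TATA box, were found in 3 windows, of Kcnj13, Slc4a5 and the Otx2 start printed above, against 12.4%. These are matches of letters on either strand and not evidence of binding.

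The secreted and carrier proteins were led by Ttr, transthyretin, which binds thyroid hormone and the retinol carrier in cerebrospinal fluid. Ttr was at 22.6, 44.2 and 29.2 CPM in male WT PBS replicates 791, 792 and 793, and at 85.2, 492 and 24.4 CPM in male WT Tau replicates 771, 772 and 773. In male KO PBS it was at 106, 16.99 and 135 CPM (replicates 751, 752 and 753), and in male KO Tau at 229, 42.0 and 3775 CPM (711, 712 and 713). The female WT Tau libraries held 7.12 and 40.1 CPM (331 and 341) and the female KO Tau libraries 307, 40.4 and 53.8 CPM (314, 324 and 325). Library 713 was thus far above the rest, at 7.67 times the next library, 772, and at 85.5 times the median of 44.2 CPM. The mean in male KO Tau was 1349 ± 2104 CPM (SD, n = 3) and in male WT PBS 31.99 ± 11.04 CPM (n = 3), so the spread of the first group exceeded its mean. Ttr took 0.378% of all counts in library 713 and at most 0.0492% in any other library.

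Folr1 encodes the folate receptor that carries folate across the epithelium. It was at 0.329, 0.930 and 0.955 CPM in male WT PBS and 0.895, 4.602 and 1.18 CPM in male WT Tau. The male KO libraries held 1.01, 0.665 and 1.65 CPM with PBS and 1.51, 0.938 and 26.02 CPM with Tau, in the library order used for Ttr. The females held 0.579 and 0.935 CPM in WT Tau and 2.47, 0.615 and 1.18 in KO Tau. Library 713 was again the highest and 772 the second, and the other 15 libraries stayed at or under 2.47 CPM.

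Kl encodes klotho, a membrane protein that is shed into the fluid and is also made by hippocampal neurons. It was at 18.3, 20.6 and 16.8 CPM in male WT PBS and 23.1, 46.6 and 20.0 CPM in male WT Tau. With PBS the male KO libraries held 37.9, 2.42 and 27.8 CPM and with Tau 38.8, 7.35 and 95.7 CPM. The females held 9.96 and 20.1 CPM in WT Tau and 38.8, 33.5 and 19.1 in KO Tau. Kl peaked in 713 too, but at only 4.66 times its median, and it had a low end of its own in libraries 752 and 712.

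Sostdc1, a secreted inhibitor of BMP and Wnt signalling, was at 1.64, 2.12 and 1.79 CPM in male WT PBS and 4.00, 7.62 and 2.46 CPM in male WT Tau. The male KO libraries held 3.30, 0.665 and 2.56 CPM with PBS and 3.28, 1.62 and 23.3 CPM with Tau. It was at 1.62 and 2.58 CPM in female WT Tau and at 3.45, 2.80 and 1.74 in female KO Tau. All 3 male WT Tau libraries lay above all 3 male WT PBS libraries.

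Of the ion and water transport genes, Aqp1, Slc4a5 and Kcne2 stayed at or under 3.18 CPM in every library except 713. Aqp1, the water channel of the fluid-facing membrane, was at 0.438, 0.413 and 0.418 CPM in male WT PBS and 0.716, 3.12 and 0.295 CPM in male WT Tau. With PBS the male KO libraries held 0.812, 0.242 and 0.915 CPM and with Tau 1.77, 0.573 and 24.5 CPM. The females held 0.232 and 0.801 CPM in WT Tau and 2.12, 0.478 and 1.06 in KO Tau. Slc4a5, a sodium bicarbonate cotransporter, was between 0.110 and 3.12 CPM in 16 libraries and at 22.7 CPM in 713. Kcne2, a subunit that tunes potassium channels, was between 0.0605 and 3.18 CPM in 16 libraries and at 18.5 CPM in 713. For these last genes 6 library values rested on 3 counts or fewer, and no value of any of the 10 genes was 0.

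Kcnj13, an inwardly rectifying potassium channel, was at 0.658, 0.723 and 0.656 CPM in male WT PBS and 1.19, 7.72 and 1.48 CPM in male WT Tau. The male KO libraries held 0.964, 1.21 and 2.01 CPM with PBS and 2.08, 2.71 and 25.9 CPM with Tau. It was at 0.926 and 1.56 CPM in female WT Tau and at 5.57, 0.615 and 1.37 in female KO Tau. Each of the 9 other male libraries lay above the 3 male WT PBS libraries. The latter held 12, 14 and 11 counts, and the lowest of the others, 751, held 19. The share of all genes with this pattern was not counted. Clic6, a protein of the chloride intracellular channel family, was at 2.08, 3.20 and 2.33 CPM in male WT PBS and 5.49, 16.5 and 2.02 CPM in male WT Tau. With PBS the male KO libraries held 5.93, 2.24 and 8.01 CPM and with Tau 8.70, 3.02 and 52.0 CPM. The females held 1.45 and 5.30 CPM of Clic6 in WT Tau and 14.0, 2.94 and 5.78 in KO Tau, so that 713, 772 and 314 were its 3 highest libraries as they were for Ttr.

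Otx2, the homeobox transcription factor needed to form the choroid plexus and also made by some neurons of the diencephalon, went its own way. It was at 0.603, 0.982 and 0.239 CPM in male WT PBS and 1.19, 3.34 and 0.541 CPM in male WT Tau. The male KO libraries held 1.07, 0.846 and 3.11 CPM with PBS and 2.52, 0.990 and 9.46 CPM with Tau. The females held 6.71 and 2.72 CPM in WT Tau and 1.55, 1.64 and 12.3 in KO Tau. Its highest library was female KO Tau replicate 325, followed by 713 and then by female WT Tau replicate 331, and the latter had the lowest level of Ttr of all libraries.

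**Figure D1:**
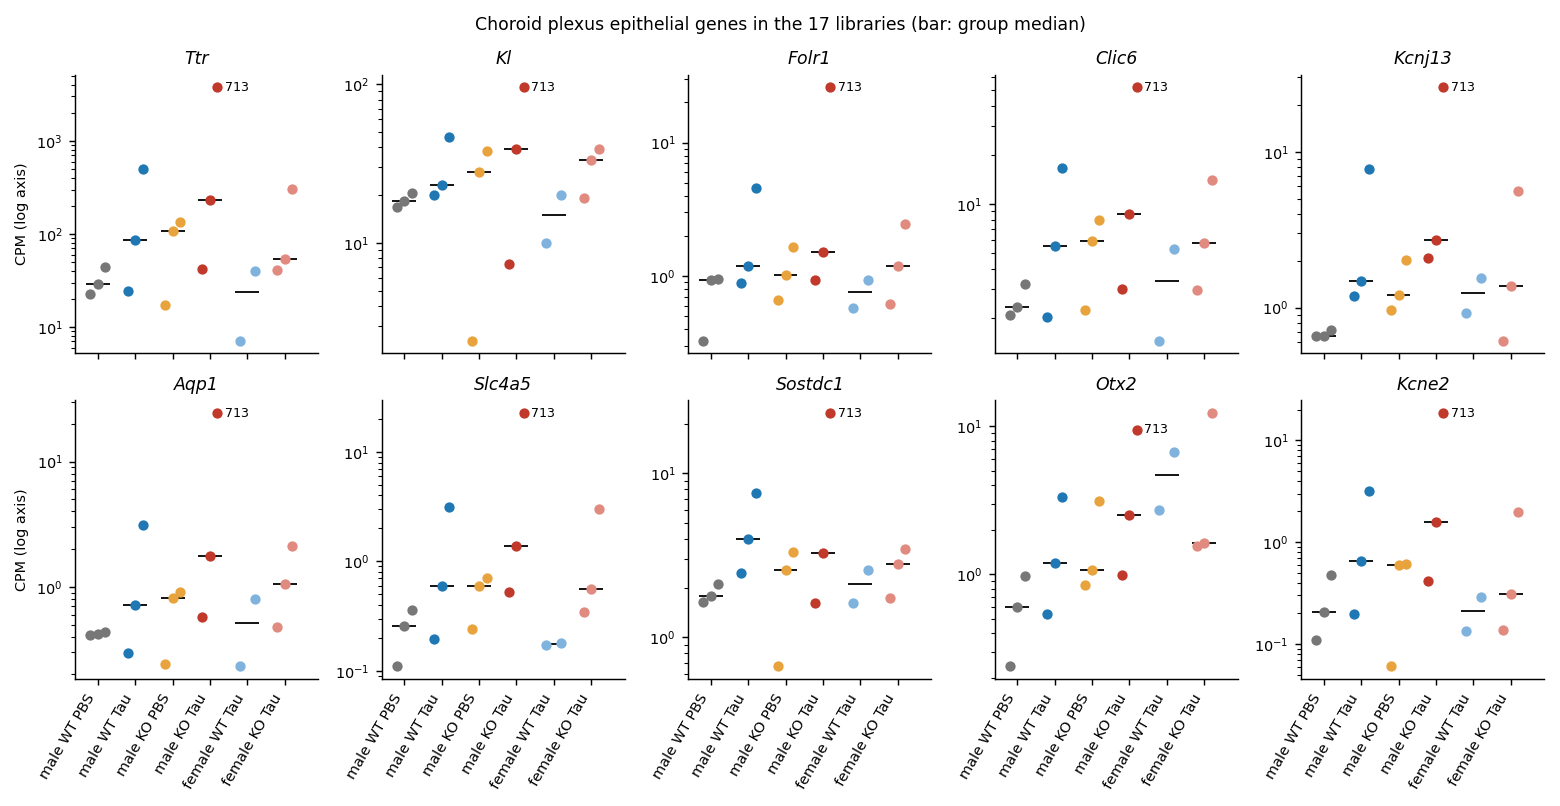
CPM (log axis) of the 10 genes in the 17 libraries, with 1 point per library, groups along the x axis and a bar at the group median; male KO Tau replicate 713 is labelled. It is the highest point for 9 genes, and for Otx2 it is second to female KO Tau replicate 325 at 12.3 CPM.

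Library 713 was the highest of the 17 for 9 of the 10 genes and among the highest 3 for all 10, values that follow in part from how the genes were chosen. Of the 14788 genes with at least 170 counts over the libraries, 3.75% were highest in 713 and 17.6% had it among their highest 3. Library 772 was among the highest 3 for 9 of the 10, and female KO Tau replicate 314 for 7. At the low end, male WT PBS replicate 791 and female WT Tau replicate 331 were each among the lowest 3 libraries for 7 genes. Summed over the 10 genes, the level ran from 25.6 CPM in male KO PBS replicate 752 to 4073 CPM in 713, with 588 CPM in 772, 380 CPM in 314 and 290.3 CPM in male KO Tau replicate 711.

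Compared per kilobase of exon, the median level over libraries was 37.2 CPM per kb for Ttr, 2.20 for Kl, 1.44 for Sostdc1, 1.35 for Clic6 and 1.08 for Kcnj13. It was 0.416 for Folr1, 0.368 for Otx2, 0.272 for Aqp1, 0.236 for Kcne2 and 0.0898 for Slc4a5. Ttr alone made up 24.5% of the counts of the 10 genes in library 331 and 92.7% in library 713. The order below Ttr was not the same in 713, where Kcnj13 was at 20.4 CPM per kb and Kl at 10.3.

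Most of the genes rose and fell together outside library 713 as well. Across the 17 libraries the log2 CPM of Aqp1 correlated with the mean of the other 9 genes at Pearson r 0.98 (Spearman rho 0.96), and across the 16 libraries without 713 at r 0.96. For Clic6 the r was 0.96 and 0.95, for Slc4a5 0.96 and 0.91, for Ttr 0.96 and 0.92, for Kcne2 0.95 and 0.89, and for Folr1 0.95 and 0.88. Sostdc1 (0.91 and 0.79) and Kcnj13 (0.89 and 0.77) followed less closely. Kl had 0.73 with 713 and 0.65 without it, and Otx2 had the lowest values at 0.49 and 0.28. By Spearman's rho the order differed, with Kl at 0.83 (0.80 without 713) above Sostdc1 at 0.79 (0.75) and Kcnj13 at 0.66 (0.59), and Otx2 at 0.57 (0.50) again the lowest. These correlations describe libraries that also differed in sequencing depth, and the labels do not say how each slice was cut. The correlations carry no p-value.

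The size of the rise was compared with Ttr in the 6 libraries with the most Ttr, as the excess over the male WT PBS mean per 1000 CPM of excess Ttr. Aqp1 kept a narrow range from 4.80 CPM in 753 to 6.83 CPM in 711, with 6.42 in 713, 5.87 in 772, 6.16 in 314 and 5.24 in 751. Kcne2 ran from 3.22 to 6.67 CPM and Slc4a5 from 3.44 to 10.2 CPM. Other genes kept their ratio less well. The range was 3.84 to 17.8 CPM for Kcnj13 and 2.36 to 24.4 CPM for Otx2. The excess of Clic6 was 13.2 CPM per 1000 CPM of Ttr in 713 and 30.3 to 53.3 in the other 5, and that of Kl was 20.6 CPM in 713 and 61.0 to 262 in the other 5.

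**Figure D2:**
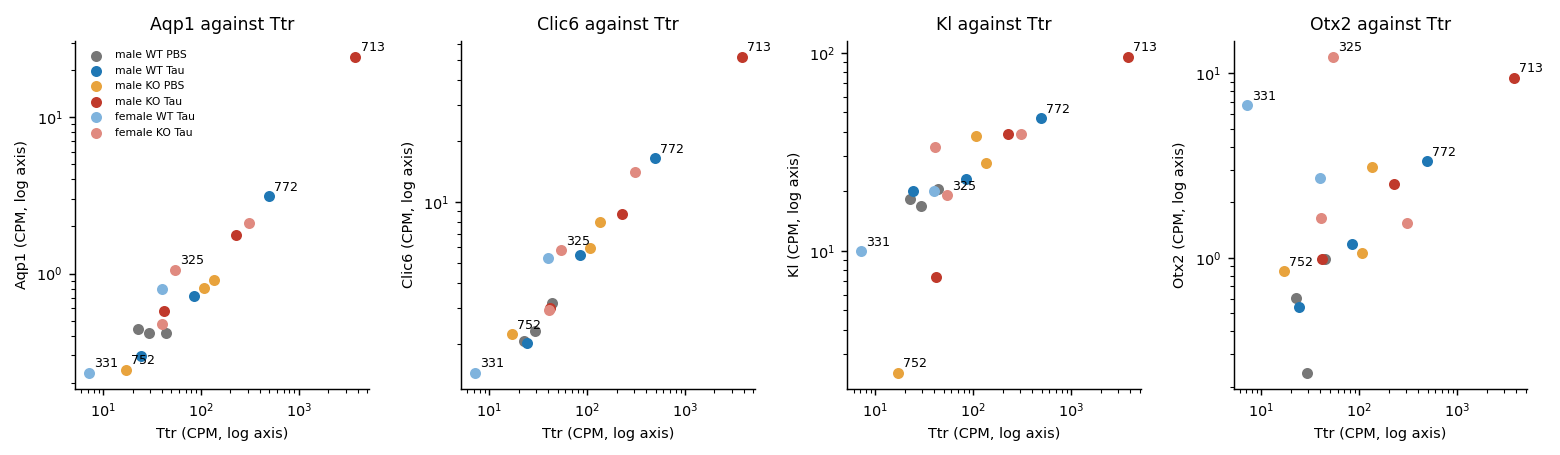
CPM of Aqp1, Clic6, Kl and Otx2 on the y axis against CPM of Ttr on the x axis (both log axes), with 1 point per library coloured by group. Aqp1 rises with Ttr over the whole range, Kl has low points of its own such as library 752 at 2.42 CPM, and Otx2 is high in libraries 325 and 331 where Ttr was at 53.8 and 7.12 CPM.

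Kl and Otx2 were therefore set beside markers of other tissue in the slice. The lowest 2 libraries for Kl, 752 and 712, were also the lowest 2 for the summed level of 3 dentate granule cell markers, Prox1, Dsp and C1ql2, at 14.7 and 39.9 CPM. Library 713 came next with 68.8 CPM, and the highest sum was 321 CPM in library 751. Libraries 324 and 314, with the next lowest sums at 71.9 and 81.3 CPM, had 33.5 and 38.8 CPM of Kl, among its 6 highest. The 7 thalamus markers summed to 462 CPM in library 324, 442 in 331 and 338 in 325, and 331 and 325 were also among the 3 highest libraries for Otx2, while 324 was at rank 8 with 1.64 CPM. Library 713 had 111 CPM of thalamus markers, rank 12 of 17, beside its 9.46 CPM of Otx2. The part of dentate or thalamic tissue in the levels of Kl and Otx2 was not tested.

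**Figure D3:**
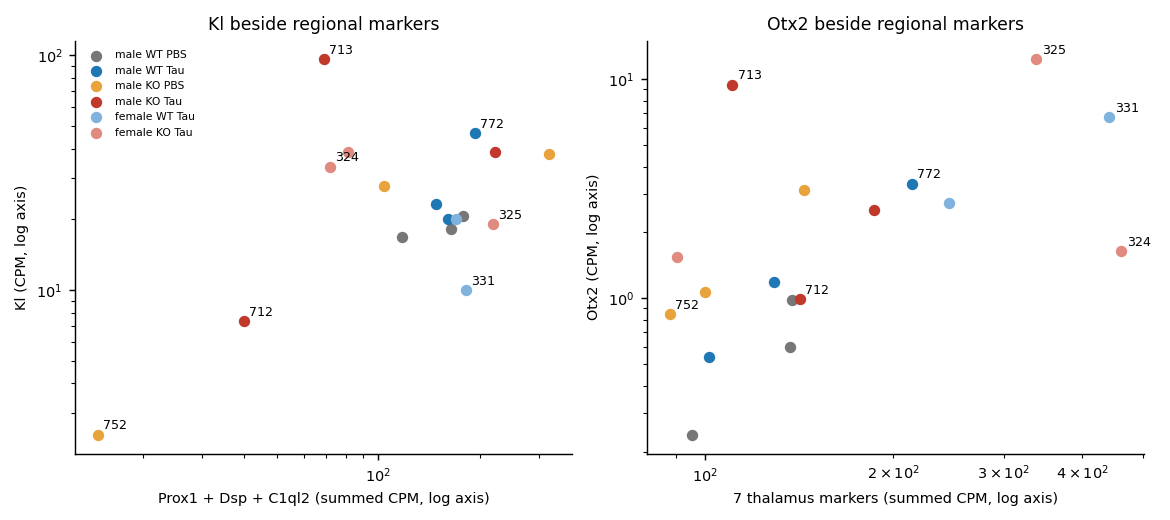
Left, CPM of Kl against the summed CPM of the dentate markers Prox1, Dsp and C1ql2; right, CPM of Otx2 against the summed CPM of 7 thalamus markers (log axes), with 1 point per library. Libraries 752 and 712 are lowest on both axes at left, and 325 and 331 are high on both axes at right while 713 is high for Otx2 at 111 CPM of thalamus markers and 324, with the most thalamus markers, is at 1.64 CPM of Otx2.

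The annotation was searched for transcripts that overlap these genes. Folr1, Kcnj13 and Otx2 overlapped Anapc15, Gigyf2 and Otx2os1 on the opposite strand, and the counting was run in reverse-stranded mode. Clic6 overlapped the noncoding 2410124H12Rik on its own strand, which had 32 counts over all libraries, and Otx2 overlapped Gm49154 on its own strand, which was not analysed here. Clic6 (chromosome 16, 92485736 to 92541243) and Kcne2 (92292389 to 92298129) lie 187606 bases apart with 4 protein-coding genes between them. Aqp1 (55336432 to 55348555) and Slc4a5 (83219828 to 83304945) both lie on chromosome 6, and each of the other genes lies on a chromosome of its own. Kl (chromosome 5, 150952607 to 150993817, plus strand) and Otx2 (chromosome 14, 48657677 to 48673819, minus strand) had the lowest Pearson r with the others.

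A further 34 genes of choroid plexus epithelium that were not among the 10 were also examined. Library 713 was the highest for 6 of 7 secreted or carrier genes, 9 of 11 transport genes, 7 of 8 junction and matrix genes and 6 of 8 regulators and others. Outside 713 their likeness to the 10 varied widely. Over the 16 other libraries the Pearson r with the mean of the 10 genes was 0.97 for Cldn2 and 0.86 for 1500015O10Rik, but 0.05 for Igfbp2, 0.04 for Slc31a1, -0.03 for Cldn3 and -0.17 for Cldn1. Enpp2, which encodes autotaxin, was at 1284 CPM in 713 against a median of 274 CPM, and Igfbp2, an IGF-binding protein, at 85.1 against 24.5 CPM. The secreted 1500015O10Rik was at 38.5 against 2.19 CPM.

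Among transport genes the anion exchanger Slc4a2 was at 90.4 CPM in 713 against a median of 40.5, the monoamine transporter Slc29a4 at 31.6 against 19.0, and the copper transporter Slc31a1 at 37.7 against 20.2. The carbonic anhydrase Car12 was highest in library 751 at 40.1 CPM and at 36.6 CPM in 713. Of the matrix and junction genes, the collagens Col9a3, Col8a2 and Col8a1 were at 56.4, 21.7 and 19.8 CPM in 713 against medians of 17.4, 3.30 and 1.83. The tight junction gene Cldn1 was highest in library 771 at 8.41 CPM. Prlr, the prolactin receptor, was at 33.6 against 4.71 CPM, Rdh5, a retinol dehydrogenase, at 12.8 against 2.61, and Msx1, a homeobox factor, at 3.72 against 1.42. Pon3, a paraoxonase, peaked in library 324 at 4.44 CPM. Mfrp was listed at 0 in every library.

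Markers of other tissue near the ventricle were less uniform. The 9 ependyma markers summed to 33.03 CPM in library 713, rank 5 of 17, with the highest sum of 42.0 CPM in 772, and 713 was highest for 3 of the 9. Foxj1, the master factor of motile cilia, was at 13.5 CPM in 713 and 15.6 CPM in 772, and the cilia genes Rsph1 and Ccdc153 peaked in 772 and in 341 at 6.46 and 8.46 CPM. The 10 markers of meninges and fibroblasts summed to 260 CPM in 772 and 253 CPM in 713, the highest 2 libraries, although only Igf2 (160 CPM against a median of 45.3), a growth factor that choroid plexus stroma also makes, was highest in 713. Col1a2 peaked in library 712 at 33.3 CPM and Dcn in 793 at 49.9 CPM.

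Markers of border macrophages, thalamus and hippocampus were highest in 713 for 0 of 6, 0 of 7 and 0 of 10 genes. Mrc1, Cd163 and F13a1 were at 2.54, 1.22 and 2.26 CPM in 713 against maxima of 7.84, 5.10 and 6.89 CPM in female libraries. Of 5 blood genes, the haemoglobin genes Hba-a1, Hba-a2, Hbb-bs and Hbb-bt were listed at 0 in all 17 libraries. In all, 4152 symbols were at 0 throughout, and why was not tested, so the blood list rested on Alas2 alone. Alas2, an enzyme of haem synthesis in red cells, was at 3.91 CPM in 713 against a median of 4.44. Prkcd, Slc17a6 and Plekhg1, markers of thalamus, were at 22.7, 38.2 and 17.8 CPM in 713, each under its median. The hippocampal genes Wfs1 and Neurod6 were at 132 and 132 CPM in 713 against medians of 166 and 192, and Slc17a7 at 1705 CPM against 1596.

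**Figure D4:**
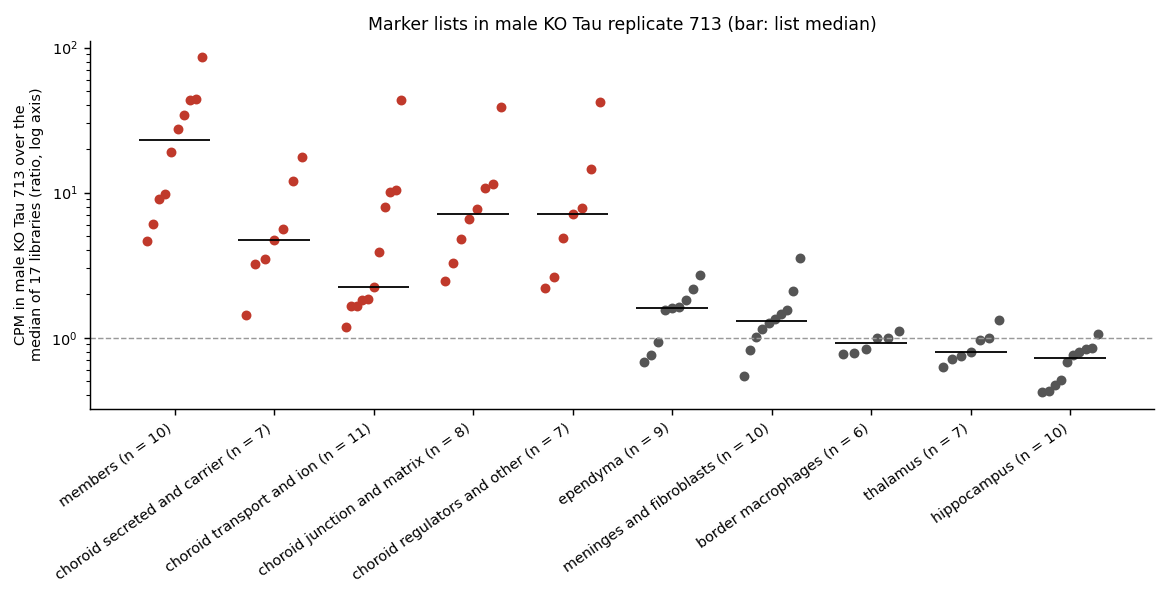
Ratio (log axis) of the CPM in male KO Tau replicate 713 to the median CPM of the 17 libraries, with 1 point per gene and a bar at the list median; choroid plexus lists are red and other lists grey, and the dashed line marks a ratio of 1. The medians are 23.1 for the 10 genes, 2.23 to 7.18 for the 4 other choroid plexus lists, and 0.723 to 1.61 for the other lists drawn.

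The genes outside the lists whose log2 CPM was most like the mean of the 10 were led by Slc2a12, a glucose transporter, with Pearson r 0.93 over the 17 libraries (0.93 after removal of group means, 0.85 without 713). It was at 17.1 CPM in 713 against a median of 4.01. Wdr86, Drc7, Slc39a4, 4833427G06Rik, Prr32, Oca2, Rbm47, Rd3 and Wfdc2 followed with r from 0.81 to 0.86. Their r was 0.76 to 0.92 after removal of group means and 0.50 to 0.83 without library 713. Each of these 10 genes had its highest level in 713, which follows in part from a ranking over libraries that include it.

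Contrasts between groups other than male KO Tau asked whether tau or the knockout alone moved the genes. Their edgeR values came from fits that share 1 estimate of the spread over all groups, library 713 included. For male WT Tau compared with male WT PBS, all 10 were higher on average, with log2 fold changes from 0.67 to 2.62 and a median of 1.64, where the median over all genes was near 0. None of the 10 was called by the edgeR quasi-likelihood test (FDR 1.00 for each), with 0 calls among 15098 genes (0%). At an unadjusted p under 0.05 the edgeR test held 0 of the 10 and 281 of all genes. This count was 6 of 10 when 713 was left out of the fit, beside 275 of 15202 genes. It was 6 of the 7 genes that passed the filter when only these 6 libraries were fitted, beside 1192 of 14698 genes. With both 713 and 772 left out it was 1 of 10, beside 105 of 15198 genes, and 0 of the genes were called each time. DESeq2 on these 6 libraries alone made 11 calls and gave 9 of the 10 genes, and 889 of all 19397 genes, an unadjusted p under 0.05. It gave no adjusted p to 8 of the 10, so these stayed uncalled, and it called 0 of the other 2. For Ttr the log2 fold change was 2.62 with an SE of 1.43, and the means were 201 ± 254 and 31.99 ± 11.04 CPM (SD, n = 3 each). The groups did not overlap for Kcnj13 and Sostdc1, 2 of 10, where 6.84% of all genes were higher without overlap. Without male WT Tau replicate 772 the median log2 fold change was 0.59.

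For male KO PBS compared with male WT PBS, all 10 genes were also higher on average, with log2 fold changes from 0.30 for Sostdc1 to 1.496 for Otx2 and a median of 0.94. Again 0 of 10 passed the edgeR test (FDR 0.999 for each), where 0.00662% of genes, namely Acss2 alone, were called, and 0 of 10 had an unadjusted p under 0.05. Among all genes 667 of 15098 had such a p. The count for the 10 genes stayed at 0 of 10 without 713, beside 622 of 15202 genes. It was 2 of the 7 that passed the filter when only these 6 libraries were fitted, beside 676 of 14719 genes. With DESeq2 on these 6 libraries alone 3 of 10 had such a p, beside 598 of 19418 genes, and 0 of the 10 were called. Ttr was at 85.9 ± 61.4 CPM in male KO PBS (log2 fold change 1.47, SE 1.39), since replicate 752, at 16.99 CPM, lay below every male WT PBS library. Only Kcnj13 did not overlap between the groups, where 2.31% of all genes were higher without overlap.

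In female KO Tau against female WT Tau the 10 genes were higher on average by 0.17 for Otx2 to 2.89 for Slc4a5 on the log2 scale, with a median of 1.13. The edgeR test called 0 of 10 (FDR 0.997 for each), with 0.00649% of 15419 genes called, again Acss2 alone. Of the 10, 0 had an unadjusted p under 0.05 with edgeR, with or without 713, beside 446 of 15419 and 357 of 15374 genes. On these 5 libraries alone 2 of the 8 that passed the filter had such a p with edgeR, beside 308 of 15078 genes. With DESeq2 2 of 10 had, beside 303 of 19368 genes, and 0 of the 10 were called by either. Ttr and Slc4a5 did not overlap between the groups, where 5.75% of all genes were higher without overlap. For Ttr, the lowest female KO Tau library, at 40.4 CPM, was next to the highest female WT Tau library, at 40.1 CPM. For Slc4a5, the WT Tau libraries 331 and 341 held only 3 and 4 counts, and the lowest KO Tau library, 324, held 5. Without library 314 the median log2 fold change fell to 0.45.

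The remaining contrasts include the library from which the genes were chosen, so their values are descriptions without a test. For male KO Tau compared with male WT PBS, the 10 genes had a median log2 fold change of 3.802, from 1.36 for Kl to 5.40 for Ttr. The edgeR fit called 0 of 10 and 0.00662% of all genes. Without library 713 the median was 1.47, from 0.32 for Kl to 2.09 for Ttr. Kcnj13, Aqp1, Slc4a5 and Otx2 did not overlap between the groups, where 6.29% of all genes were higher without overlap. For Otx2 the groups nearly touched, at 0.990 CPM in library 712 and 0.982 CPM in 792, with 19 counts in each. The lowest KO Tau library held 11 counts of Aqp1 and 10 of Slc4a5, against at most 8 and 6 in WT PBS. For Kcnj13 it held 33 against at most 14.

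In male KO Tau against male WT Tau the direction changed with the libraries left out, 713 in the first group and 772 in the second. All 10 genes were higher with it, with a median log2 fold change of 1.86, and 1 of 10 was higher without it, with a median of -0.43. Ttr went from 2.78 to -0.53, Aqp1 from 2.73 to -0.22 and Folr1 from 2.12 to -0.84, and only Otx2 stayed above 0 at 0.07. Without the high WT library, 772, and with 713 kept, the median was 3.08. With both left out, an alternative chosen after seeing the data, it was 0.95 and 9 of 10 genes were higher. The fit called 0 of 10, where 0.00662% of all genes were called, and 0 of 10 were higher without overlap, where 3.85% of all genes were.

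In male KO Tau against male KO PBS the median log2 fold change was 2.93 with library 713 and 0.36 without it, where 8 of 10 were still higher. Ttr went from 3.92 to 0.62 and Kcne2 from 3.91 to 1.11. The fit called 0 of 10 and 0% of all genes, and Kcnj13 alone did not overlap between the groups (6.16% of all genes were higher without overlap). The genotype by tau interaction, the difference between the tau effect in KO and in WT males, had a median of 1.02 with 9 of 10 above 0 when 713 was in the fit, and -1.46 with 0 of 10 above 0 when it was not. The interaction fit called 0 of 10 and 0% of all genes. Across all genes common to both fits, 50 of 15087 shifted by more than 1 on the log2 scale when 713 was left out of the male KO Tau group. These 50 held all 10 genes, which shifted by 1.04 to 3.31, and 17 of the other choroid plexus genes, while the median absolute shift of all genes was 0.055.

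**Figure D5:**
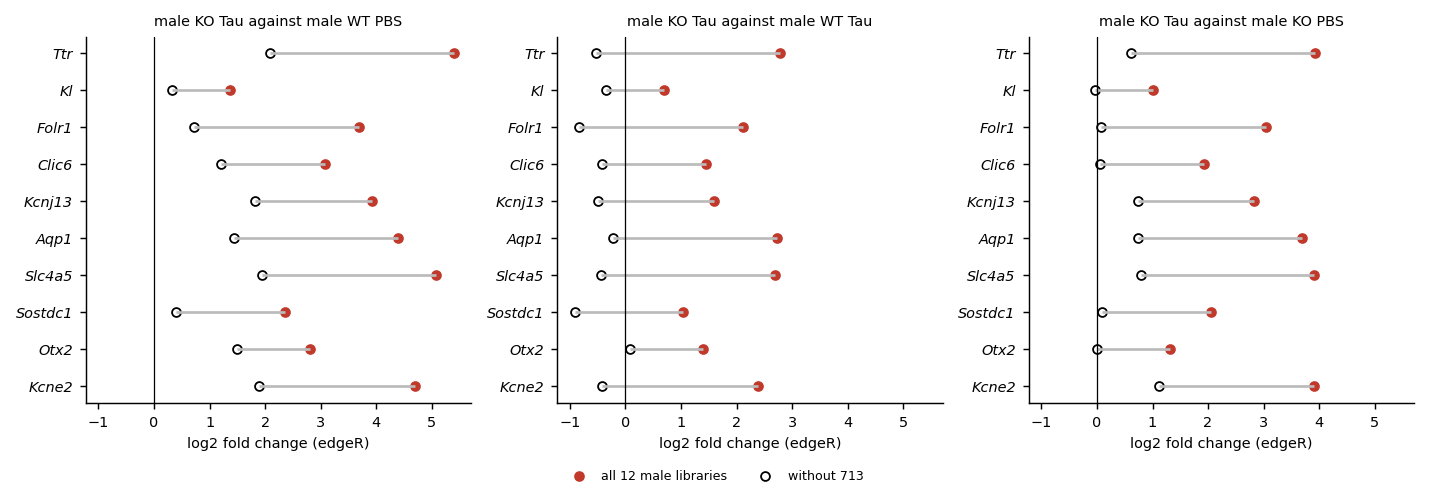
Log2 fold change (edgeR) of the 10 genes in the 3 contrasts of male KO Tau with another male group, from all 12 male libraries (filled) and without male KO Tau replicate 713 (open); the vertical line marks 0. Against male WT Tau the filled points lie at 0.69 to 2.78 and 9 of the 10 open points lie below 0.

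Which calls the genes could enter was read from DESeq2, the tool named in the methods of the study, on only the groups compared. Male KO Tau against male WT PBS gave 22 calls (0.113% of genes), of which 0 were among the 10, and 3 of the 10 had no adjusted p. With replicate 712 left out there were 52 calls, of which 34 (0.176% of genes) were higher in KO Tau. Of these 34, 9 were among the 10 genes and 11 among the other choroid plexus genes, together 58.8% of the higher calls. The 9 were Ttr, Kl, Clic6, Kcnj13, Aqp1, Slc4a5, Sostdc1, Otx2 and Kcne2, and 26 of the 34 genes (76.5%) had their highest level in library 713. Drc7, Prr32, Rbm47 and Wfdc2, named above for their likeness to the 10, were also among the higher calls. That likeness was ranked over libraries that include 713, which this fit keeps, so their calls follow in part from the ranking.

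With replicate 711 left out in place of 712, the same test gave 1032 calls, 494 of them (2.56% of genes) higher in KO Tau. Of these 494, 5 were among the 10 genes (Ttr, Kcnj13, Aqp1, Slc4a5 and Kcne2) and 9 among the other choroid plexus genes, together 2.83%. Genes with their highest level in 713 made up 61 of the 494, or 12.3%. With replicate 713 left out there were 7 calls (0.0364% of genes), of which 0 were choroid plexus genes. Thus the choroid plexus genes were most of the higher calls in the fit without 712 and a small share of them in the fit without 711.

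In the other contrasts few of the genes entered a call. Male KO Tau against male WT Tau gave 28 calls (0.144% of genes), and 1377 (7.13% of genes) without replicate 711, with 0 choroid plexus genes in either set. Male WT Tau against male WT PBS gave 269 calls without replicate 773, of which 86 (0.447% of genes) were higher in Tau, Ttr, Clic6, Sostdc1, F5, Lbp and 1500015O10Rik among them. Male KO PBS against male WT PBS gave 217 calls without replicate 752, of which 106 (0.55% of genes) were higher in KO, with Ttr, Kl, Clic6 and F5 among them. Male KO Tau against male KO PBS gave 14 calls without replicate 711, of which 10 (0.0518% of genes) were higher, with Kcnj13 among them. In females Kl was called without library 341 (log2 fold change 1.73, SE 0.40), where 0.136% of genes were called higher in KO Tau and the WT Tau arm was 1 library, assumed to vary like the KO Tau libraries, and without library 325 (1.36, SE 0.32), where 0.115% were. Library 772 was kept in the fit without 773, and no male KO Tau library entered that fit or the one without 752. However, replicates 773 and 752 each held the least Ttr and Clic6 of their own group. With every replicate kept, or any other single replicate left out, DESeq2 called 0 of the 10 genes for either pair. Genes without an adjusted p stayed uncalled in several of those fits. The calls for these pairs thus depended on which replicate was left out. Replicates 711 and 325 likewise held the least Kcnj13 and Kl of their groups.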

How the data were processed

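The authors aligned reads with RNA-STAR (STAR 2.5.2) to GRCm38 and counted exonic reads with HTSeq 0.9.1 using its reverse-stranded setting. Raw read counts for each gene symbol were deposited, with no scaling. The annotation release is not given in the sources used here. No 2 of the 17 libraries were duplicates (smallest chi-square per gene 3.60 over 136 pairs). Where the labels do not say which mice were housed or handled together, p-values measure only the spread between these libraries. Depth ran from 14183131 to 22463635 counts, and limits of 3 counts cover counting error only.

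CPM used library totals, log2 CPM a prior count of 2, and lengths and positions came from the GENCODE annotation of GRCm38, where 96.2% of symbols had 1 position. Promoter sequences came from RefSeq (GRCm38.p6), with windows for 6 of the 10 genes. Counts were tested with the edgeR 4.0.16 quasi-likelihood F-test in R 4.3.3, after TMM scaling and the filterByExpr filter at a minimum count of 10 and a total of 15, with Benjamini-Hochberg adjustment at an FDR of 0.05, in 1 fit of the 12 male libraries and, for females, 1 fit of the 11 Tau libraries. All 10 genes passed the filter in both fits. The functions were tested on simulated data.

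The alternatives were DESeq2 1.42.0 (the tool the authors used) on the same libraries or on only the groups compared, other scaling, no filter, only the groups compared, all 17 libraries, the mean log2 CPM of the 10 genes as a covariate and each replicate left out. Genes without an adjusted p in DESeq2 stayed uncalled.

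The 10 genes and the lists were chosen with earlier results of these data known. Values were given for the 10 genes, Acss2, the 4 most abundant genes of each other choroid plexus list, the 3 most abundant of each other list and the 10 genes most like the 10 by Pearson r, and for genes called. Prlr, Slc2a12 and others follow this rule, while Hbb-bs, Hbb-bt, Mfrp, Cldn2 and Cldn3 were named after their values were seen. A gene that this rule names is not reported here.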

Additional observations from a re-analysis of the deposited data

How the results depend on the processing

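No paired analysis was possible because the groups compared shared no replicate numbers. In place of 0 calls for male WT Tau against male WT PBS, DESeq2 fitted to the compared pair of groups made 11. In place of 1 for male KO PBS against male WT PBS, DESeq2 made 2 on the male libraries and 4 on the pair. In place of 1 for male KO Tau against male WT PBS, there were 15 and 22 with DESeq2 in the same order, 2 with the mean level of the 10 genes as a covariate and 3 with all 17 libraries. In place of 1 for male KO Tau against male WT Tau, there were 4 and 28 with DESeq2 and 2 with the covariate. DESeq2 on the male libraries called 36 for male KO Tau against male KO PBS, in place of 0, and gave no adjusted p for 7 of the 10 genes there. For females the count was 0 with edgeR on the pair and 4 with DESeq2 on the pair, in place of 1.

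When 1 replicate at a time was left out, over edgeR and DESeq2, call counts ran from 0 to 269 (WT Tau against WT PBS), 1 to 217 (KO PBS against WT PBS), 1 to 1032 (KO Tau against WT PBS), 1 to 1377 (KO Tau against WT Tau), 0 to 16 (KO Tau against KO PBS), 0 to 0 (interaction) and 0 to 40 (females). With DESeq2 on a pair there were 119 calls for WT Tau against WT PBS without 792 and 30 for KO PBS against WT PBS without 753. There were 52 for KO Tau against WT PBS without 712, where 711 left out gave 5 calls among the 10 genes, 14 for KO Tau against KO PBS without 711, and 30 for females without 341, which left 1 WT Tau library. The calls among the 10 genes ran from 0 to 3, 0 to 3, 0 to 9, 0 to 0, 0 to 1, 0 to 0 and 0 to 1 in the same order. Over the edgeR fits only, the median log2 fold change of the 10 genes ran from 0.59 to 2.12, 0.59 to 1.21, 1.47 to 4.30, -0.43 to 3.08, 0.36 to 3.42, -1.46 to 2.21 and 0.45 to 1.61. With both 713 and 772 left out, chosen after seeing the data, it was 1.47 for KO Tau against WT PBS, 0.95 for KO Tau against WT Tau (9 of 10 higher), 0.36 for KO Tau against KO PBS and -0.23 for the interaction. The cause was not tested beyond the libraries left out. Depth limits Slc4a5 and Kcne2, whose 6 lowest values rest on at most 3 counts.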

Other observations

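The lists of other cell types moved unevenly in the contrasts, and none of their genes was called by edgeR. In male WT Tau against male WT PBS, 7 of 7 secreted, 11 of 11 transport, 6 of 7 junction and 6 of 6 regulatory choroid plexus genes that passed the filter were higher on average, with median log2 fold changes of 0.76, 0.40, 1.01 and 0.67. The ependyma list (9 of 9 higher, median 0.87) and the meninges list (9 of 10, median 0.84) lay as high there, while the hippocampus list had a median of 0.14.

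In male KO PBS against male WT PBS the medians of those 4 choroid plexus lists were 0.51, 0.37, 0.58 and 0.39, with ependyma at 0.60 and meninges at 0.32. In male KO Tau against male WT Tau, with library 713 in the fit, the choroid plexus lists had medians of 0.87, 0.46, 1.06 and 0.87. In the same fit 2 of 9 ependyma genes and 1 of 10 hippocampus genes were higher, with medians of -0.53 and -0.57. Pooled over the 4 choroid plexus lists, 28 of 31 genes were higher with 713 (median 0.88) and 8 of 31 without it (median -0.17). Medians without 713 are not given here for the ependyma and hippocampus lists. In females, 0 of 10 meninges genes were higher in KO Tau (median -0.60), beside medians of 0.02 to 0.33 for the 4 choroid plexus lists and 1.13 for the 10 genes. The difference between lists was not tested.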
